A study of Danio rerio with 4 samples.

Results

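The genes described here are 79 protein-coding genes of the zebrafish (Danio rerio) that carry only a provisional name and whose transcript level differed strongly between larvae exposed to PM2.5 and untreated larvae. They were found by a rule applied to the 32520 distinct gene IDs of the table. A gene had to be annotated as protein coding, to be listed under a name that contains a colon or starts like a clone accession, and to average at least 5 TPM over the 4 libraries (transcripts per 1000000, a relative abundance corrected for transcript length). It then had to have a lowest PM2.5 value at least 3 times the highest control value, or a highest PM2.5 value at most 0.5 times the lowest control value. Of 5931 protein-coding genes without names, 1428 reached the mean of 5 TPM, and of these 68 were higher and 11 lower. Because the set was chosen by the TPM values of the same 4 libraries, its own differences between the groups are given as a description, with no test.

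Provisional names record how a gene model was found and say nothing of its product. In zebrafish, names starting si: come from sequenced genome clones, zgc: from a full-length cDNA collection and wu: from expressed sequence tags, while names such as CR385054.1 are the accession of a clone with a serial number. Genes without names often belong to lineages that were duplicated in fishes, for which no single mammalian counterpart can lend a name. Many immune genes of the zebrafish are of this kind.

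Exposed larvae received 12000000 smog particles (PM2.5, the fine fraction of airborne particulate matter) between 72 and 120 hours after fertilization, and control larvae were left untreated. Each group had 2 libraries of whole larvae, with RNA taken from 5 to 7 larvae per group, and no strain or allele is given. Nothing in the labels tells whether 2 libraries with the same treatment were independent exposures, so the spread between them may be technical. The libraries listed 24121 and 25138 genes above 0 in PM2.5 larvae and 25069 and 24923 in controls. TPM keeps no read depth, so no counting error can be attached to a value.

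Whole-larva RNA mixes all cell types, and a change in the number of cells of a type cannot be told apart from a change in RNA per cell. The summed TPM of 3 goblet cell markers was 82.8 and 85.6 in PM2.5 larvae, against 11.98 and 10.23 in controls, almost all of it from agr2 and muc5.1. The third of these, muc5.2, was near 0 and went the other way, at 0.0243 and 0.0769 TPM in PM2.5 larvae and 0.408 and 0.404 TPM in controls. The 14 macrophage markers summed to 902 and 866 TPM in PM2.5 larvae and to 533 and 538 TPM in controls. Most of each sum came from apoeb, at 780 and 759 TPM in PM2.5 larvae and 491 and 489 TPM in controls. The next in PM2.5 larvae, grn2, had 59.8 and 52.9 TPM there, against 6.15 and 9.36 TPM in controls. Among the other macrophage markers the groups overlapped in spi1b, cd74a, csf1ra and c1qb. In c1qc both PM2.5 values were lower, and in the rest both were higher. The 14 keratinocyte and periderm markers summed to 8443 and 8542 TPM in PM2.5 larvae and 16601 and 16379 TPM in controls. The 14 gene IDs of proliferating cells summed to 649 and 623 TPM in PM2.5 larvae and to 479 and 459 TPM in controls. The test across all genes given further on called 8.46% of all genes higher and 2.62% lower. It called higher 2 of 2 goblet cell genes tested, 4 of 13 macrophage, 9 of 13 proliferation, 4 of 8 ionocyte and 4 of 9 erythroid genes. Of 11 neutrophil genes tested, 2 were called higher and 1 lower. Of 9 enterocyte genes tested, 1 was called higher and 3 lower. The 1 tested gene of T and NK lymphocytes was not called. Of 14 keratinocyte and periderm genes 5 were called higher and 7 lower, 1 erythroid gene was called lower, and 10 of 12 skeletal muscle and 8 of 12 exocrine pancreas genes were called lower. The part of these shifts in the differences below was not tested.

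The 68 higher genes made up 4.76% of the 1428 candidates and the 11 lower genes 0.77%. The same thresholds took 1.35% (higher) and 0.329% (lower) of all 14272 genes at or above that mean. The number of higher genes lay between 62 and 89 when 1 library was left out, and 55 to 68 of the 68 were then retained. The number of lower genes was 23 or 48 when the first or the second PM2.5 library was left out, and 22 or 17 when the first or the second control library was left out. These contained 9 to 11 of the 11. With a library left out, the minimum mean was taken over the other 3 libraries and fewer values had to meet the ratio. A gene of the set then still met the ratio by construction and could be lost only by its mean. The numbers retained were thus largely fixed in advance.

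Together, the higher genes summed to 5515 and 5590.0 TPM in the PM2.5 libraries, against 459 and 446 TPM in the controls, a ratio of 12.3. The sum was uneven: zgc:111983 and si:dkey-247k7.2 held 41.7% of it in PM2.5 larvae, and the 10 most abundant genes held 72.3%. Without the first 2 the ratio of the sums was 11.28. Most of these genes were low in untreated larvae. The control mean was under 5 TPM in 48 of 68 and under 1 TPM in 11 of 68. The rule favours this, because a higher gene could reach the mean of 5 TPM through its PM2.5 values alone. These counts therefore follow in part from the selection. The ratio of group means ran from 3.299 to 230 with a median of 7.91 over the genes for which it could be formed, and it reached 10 in 29 genes and 50 in 5. The 11 lower genes summed to 889 and 880 TPM in PM2.5 larvae, against 3066 and 3113 TPM in controls, a ratio of 0.286. Their ratios of means lay between 0.201 and 0.467. The plot of all genes by library shows every PM2.5 point of a gene on one side of its control points, as the rule requires.

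**Figure D1:**
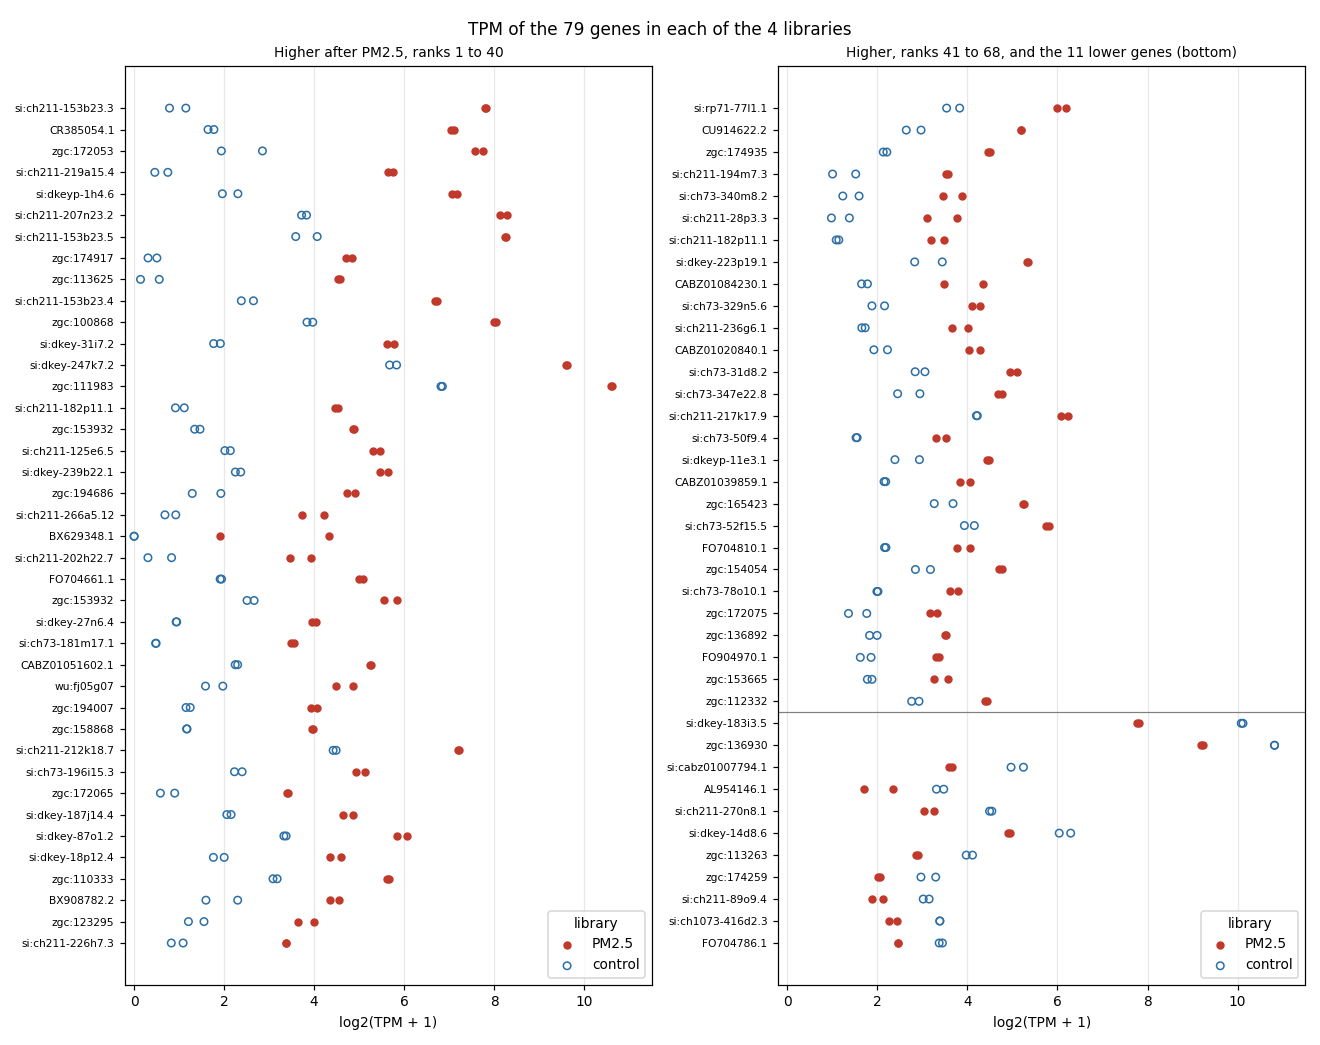
Each row is 1 of the 79 genes, and each point is 1 library on the log2(TPM + 1) axis (PM2.5 filled, control open; 2 libraries per group). The 68 higher genes run over both panels by the size of the difference, and the 11 lower genes stand under the line in the right panel. In most rows the 2 libraries of a group lie close together, with BX629348.1 as the clearest exception.

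**Figure D2:**
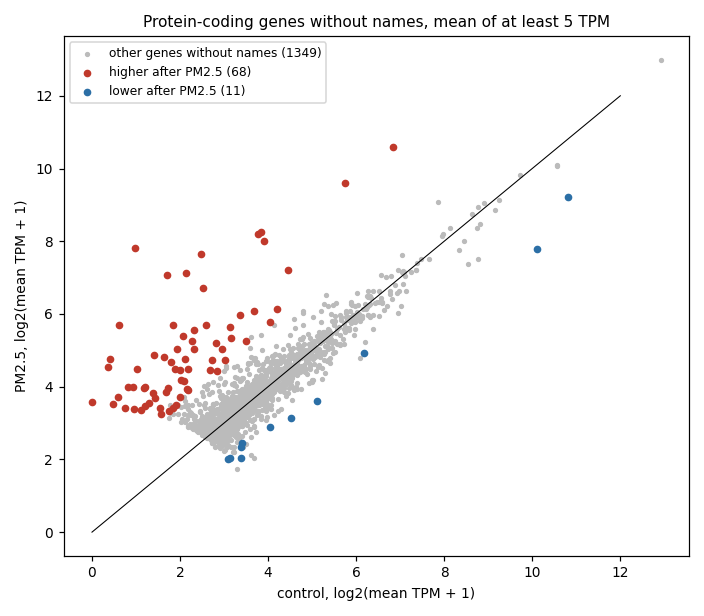
Mean level in PM2.5 larvae (vertical axis) against control larvae (horizontal axis), both as log2(mean TPM + 1), for the 1428 protein-coding genes without names. The line marks equal levels. The 68 higher genes stand above the cloud of the other 1349, mostly at low control levels, which the rule favours. The 11 lower genes stand under the cloud.

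The thresholds were met more often by genes without names than by the other protein-coding genes of the same minimum level. Among 12402 other protein-coding genes at or above 5 TPM, 109 (0.879%) met the higher threshold and 33 (0.266%) the lower threshold. The difference in shares was present in each range of mean TPM for higher genes. The shares of genes without names, against the other genes, were 3.83% against 1.254% at 5 to 10 TPM, 4.68% against 0.536% at 10 to 20 TPM, 5.38% against 0.955% at 20 to 50 TPM, and 8.09% against 0.755% at 50 TPM and above. For lower genes the shares were 0.799% against 0.167%, 0.493% against 0.204%, 0.385% against 0.263% and 2.21% against 0.593% in the same order, on 11 genes in all. The mean used for these ranges includes the PM2.5 values, and no test was made of the shares. Of 84 further genes in the other group that also had a clone-type name, or none, outside the rule, 0 met the higher and 0 the lower threshold.

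**Figure D3:**
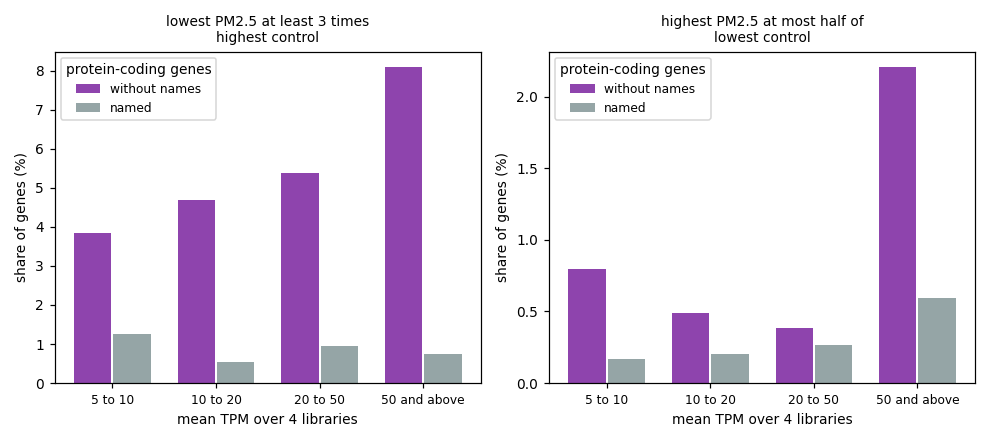
Share of protein-coding genes (%) that met the higher threshold (left) or the lower threshold (right), by mean TPM over the 4 libraries, for genes without names (purple) and the other protein-coding genes (grey). The share of higher genes was larger without names in all 4 ranges, from 3.83% against 1.254% to 8.09% against 0.755%; the lower bars rest on 11 genes without names.

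The gene with the largest difference was si:ch211-153b23.3 (ENSDARG00000104919, chromosome 14), with 222 and 224 TPM in the PM2.5 libraries, against 1.22 and 0.725 TPM in the controls. Its group means were 223 ± 0.869 TPM in PM2.5 larvae and 0.971 ± 0.348 TPM in controls (SD, n = 2 each), a log2 difference of 6.84 with a standard error (SE) of 0.14 on log2(TPM + 1). The groups were far apart, and the PM2.5 libraries were almost equal. CR385054.1 (ENSDARG00000100106, chromosome 12), now called si:ch211-182p11.4, had 136 and 130.2 TPM in the PM2.5 libraries, against 2.42 and 2.12 TPM in the controls, a log2 difference of 5.36 (SE 0.11). The gene zgc:172053 (chromosome 9) had 190.2 and 213 TPM in the PM2.5 libraries, against 2.83 and 6.21 TPM in the controls; here the controls differed from each other by a larger ratio than the PM2.5 libraries did, with both far below them.

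A pair of the largest differences lay on chromosome 18. The gene si:ch211-219a15.4, named chs4 in RefSeq, had 52.7 and 49.0 TPM in the PM2.5 libraries, against 0.376 and 0.680 TPM in the controls, a log2 difference of 5.09 (SE 0.17). It was thus close to 0 in both controls. The gene si:dkeyp-1h4.6 had 143 and 133 TPM in the PM2.5 libraries, against 3.94 and 2.89 TPM in the controls (log2 difference 4.99, SE 0.14). A like range of log2 difference was seen for si:ch211-207n23.2 (chromosome 15), for which RefSeq gives ly6d as a synonym, a name used in mammals for a small membrane-anchored protein of the Ly6 family: 280.3 and 310.2 TPM in the PM2.5 libraries, against 13.2 and 12.2 TPM in the controls. All 3 had groups that were separated by more than 10 times at the ratio of means, at 96.3, 40.4 and 23.3.

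The most abundant gene of the set in PM2.5 larvae was zgc:111983 (ENSDARG00000006588, chromosome 1), at 1529.7 and 1553 TPM in the PM2.5 libraries, against 114 and 112 TPM in the controls. The next was si:dkey-247k7.2 (ENSDARG00000103199, chromosome 16), at 772 and 779 TPM in the PM2.5 libraries, against 55.8 and 50.1 TPM in the controls. Both already had a clear level in untreated larvae, and their ratios of means, 13.7 and 14.6, were close to each other. Their log2 differences were 3.76 (SE 0.04) and 3.85 (SE 0.07). In RefSeq order zgc:111983 stands 3 genes from the transmembrane mucin gene muc13a, which had 6.95 and 8.22 TPM in the PM2.5 libraries, against 0.581 and 0.797 TPM in the controls. On chromosome 16 the third gene after si:dkey-247k7.2 was s100a10b, a gene of the S100 family of small calcium-binding proteins, at 221 and 205 TPM in the PM2.5 libraries, against 139 and 137 TPM in the controls. In the PM2.5 libraries both neighbours were less abundant than the gene of the set beside them. In the controls this held for muc13a, while s100a10b was more abundant than si:dkey-247k7.2. Both neighbours were called higher in PM2.5 larvae by the test across all genes given further on. They were picked from the genes within 5 places on either side. Of these, ddx39aa near zgc:111983 and icn near si:dkey-247k7.2 were also called higher. Not called were adisspa and evi5l near the first, and efna3b, efna1b, slc50a1, trim46a, krtcap2 and s100w near the second. The genes between zgc:111983 and muc13a were too low to be tested.

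Several of the higher genes stood side by side in the genome. Chromosome positions were not used, but the order of genes was taken from RefSeq (assembly GRCz12tu), in which 58 of the 68 higher genes matched 55 distinct genes and all 11 lower genes matched. Among the placed genes there were 5 stretches in which genes of the set lay within 5 genes of each other. They held 13 higher genes, and there was no such stretch among the lower genes. Higher genes without a match, such as CR385054.1, had no place in this order, so their grouping was not counted. The count also depends on the limit of 5 genes. On chromosome 12, zgc:153932 and si:ch211-226h7.3 lay further apart than this but shared a neighbour within it. The same held for si:ch211-182p11.1 with CU914622.2 and with CABZ01051602.1. How often other genes without names lie within 5 genes of each other was not counted. The counts therefore cannot tell whether the higher genes were grouped more than such genes usually are, and 11 lower genes are few for a comparison. The longest of the 5 counted stretches, with 4 genes of the set, was on chromosome 14 next to irg1l. The gene irg1l is a relative of the mammalian gene whose enzyme makes the antimicrobial metabolite itaconate in activated macrophages. In that order the genes were irg1l, si:ch211-153b23.3, si:ch211-153b23.4, si:ch211-153b23.5, zgc:174917 and si:ch211-153b23.7.

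Along this stretch irg1l had 391 and 379 TPM in the PM2.5 libraries, against 1.69 and 2.48 TPM in the controls, close to the size of the difference of si:ch211-153b23.3 given above. The next gene of the set, si:ch211-153b23.4, had 106 and 102 TPM in the PM2.5 libraries, against 5.28 and 4.21 TPM in the controls. After it, si:ch211-153b23.5 had 298 and 306 TPM in the PM2.5 libraries, against 15.7 and 11.04 TPM in the controls. These 2 had a higher control level than si:ch211-153b23.3, and their log2 differences were 4.20 and 4.42 (SE 0.12 and 0.15). The gene zgc:174917 had 27.4 and 25.0 TPM in the PM2.5 libraries, against 0.239 and 0.420 TPM in the controls, so its control values were below 0.5 TPM. At the end of the stretch si:ch211-153b23.7, which is outside the set because its mean was 3.61 TPM, had 5.81 and 6.54 TPM in the PM2.5 libraries, against 0.988 and 1.105 TPM in the controls. On the other side of irg1l, glod5 had 29.7 and 29.9 TPM in the PM2.5 libraries, against 11.1 and 10.5 TPM in the controls. The gene beyond it, rlim, had 15.7 and 20.2 TPM in the PM2.5 libraries, against 16.6 and 18.2 TPM in the controls. The ubiquitin ligase gene rlim thus bounded the stretch with overlapping groups. Nothing in the sources used here states how reads that match more than 1 of such neighbouring genes were counted.

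A second such neighbourhood was on chromosome 12 and had 1 gene of the set, si:ch211-28p3.3, now called plekhs1.4, a gene for a protein with a pleckstrin homology domain. It had 7.55 and 12.7 TPM in the PM2.5 libraries, against 0.973 and 1.60 TPM in the controls, with the PM2.5 libraries unequal but both above the controls. Its 3 neighbours on one side have the same family name. The listed gene plekhs1, now plekhs1.1, had 59.7 and 64.2 TPM in the PM2.5 libraries, against 1.184 and 0.574 TPM in the controls. The listed gene zgc:153920, now plekhs1.2, had 9.30 and 6.76 TPM in the PM2.5 libraries, against 0 and 0.0316 TPM in the controls. The listed gene zgc:158404, now plekhs1.3, had 6.51 and 7.15 TPM in the PM2.5 libraries, against 0.442 and 0.609 TPM in the controls. The log2 differences of these 4 genes were 5.08, 3.14, 2.36 and 2.26 in chromosome order, the last being the gene chosen by the rule. The genes zgc:153920 and zgc:158404 were left out of the set only by their means of 4.02 and 3.68 TPM. The gene next to plekhs1.4 on the far side, si:ch211-28p3.4, had 9.19 and 7.21 TPM in the PM2.5 libraries, against 6.43 and 9.20 TPM in the controls, and its groups overlapped.

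**Figure D4:**
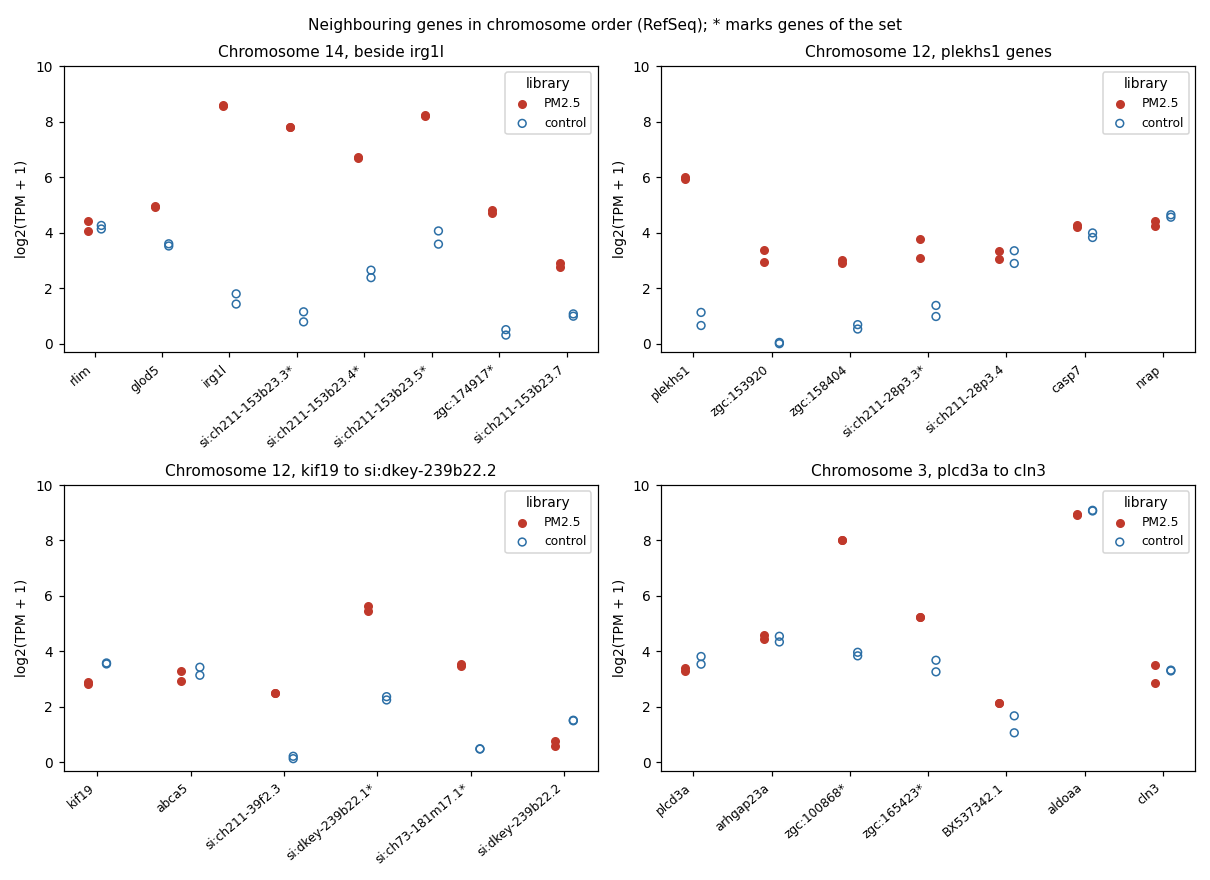
Level of neighbouring genes in RefSeq chromosome order on 4 stretches, as log2(TPM + 1), with 1 point per library (PM2.5 filled and left, control open and right) and an asterisk on genes of the set; genes without a matching row are left out. On chromosome 14, irg1l and the 5 genes after it stood higher in PM2.5 libraries, as did all 4 plekhs1 genes. Between groups, rlim, si:ch211-28p3.4, abca5, arhgap23a and cln3 overlapped. The genes kif19, si:dkey-239b22.2, plcd3a, aldoaa and nrap stood lower.

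The other 4 stretches with more than 1 gene of the set were shorter. On chromosome 3, zgc:100868 had 259.7 and 255 TPM in the PM2.5 libraries, against 14.6 and 13.3 TPM in the controls. The gene zgc:165423, 2 places further in RefSeq order, had 36.6 and 37.2 TPM in the PM2.5 libraries, against 11.8 and 8.60 TPM in the controls. The first differed by 4.11 and the second by 1.77 on the log2 scale, so these neighbours differed by unequal amounts. On chromosome 7 there were 3 in a row. There si:dkey-187j14.4 had 23.9 and 28.1 TPM in the PM2.5 libraries, against 3.45 and 3.17 TPM in the controls. Then zgc:172065 had 9.77 and 9.52 TPM in the PM2.5 libraries, against 0.867 and 0.499 TPM in the controls. Last, zgc:172075 had 9.05 and 7.96 TPM in the PM2.5 libraries, against 2.40 and 1.56 TPM in the controls. All 3 were low in controls, between 0.499 and 3.45 TPM. On chromosome 16, zgc:174935 had 21.7 and 20.9 TPM in the PM2.5 libraries, against 3.63 and 3.38 TPM in the controls. Its neighbour si:dkey-87o1.2 had 66.1 and 56.4 TPM in the PM2.5 libraries, against 9.38 and 9.03 TPM in the controls. The ratios of means of this pair were 6.08 and 6.65. On chromosome 12, si:dkey-239b22.1 had 42.8 and 49.0 TPM in the PM2.5 libraries, against 4.16 and 3.75 TPM in the controls. The next gene, si:ch73-181m17.1, had 10.24 and 10.6 TPM in the PM2.5 libraries, against 0.403 and 0.393 TPM in the controls. Before these 2 in the order stood a gene listed as si:ch211-39f2.3, below the minimum mean, with 4.63 and 4.61 TPM in the PM2.5 libraries, against 0.163 and 0.0954 TPM in the controls. The gene directly after the pair, si:dkey-239b22.2, went the other way and was not called. It had 0.694 and 0.496 TPM in the PM2.5 libraries, against 1.83 and 1.86 TPM in the controls. The RefSeq record matched to si:dkey-239b22.1 also has the name si:ch211-39f2.3, while the other reference of gene names keeps si:dkey-239b22.1. Provisional names on this stretch thus differ between sources.

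Over all placed genes, neighbours outside the set were counted with the test across all genes (limma on log2(TPM + 1), Benjamini-Hochberg adjusted p under 0.05). That test called 8.46% of 20874 genes higher and 2.62% lower in PM2.5 larvae, or 1766 and 547 genes. The split was 1233 and 835 after TMM-type rescaling and 1324 and 962 after quantile normalization. The median log2 difference of all tested genes was 0.07 as deposited, -0.02 after rescaling and -0.04 after quantile normalization. With any single library removed, PM2.5 or control, there were between 286 and 371 higher and between 70 and 124 lower calls. Of 246 tested neighbours within 5 genes of a higher gene of the set, 33 (13.4%) were called higher and 6 (2.44%) lower. Around the other 1044 placed genes without names, 457 of 5051 neighbours (9.05%) were called higher and 125 (2.47%) lower. The median log2 difference was 0.08 in both sets of neighbours. Around the 11 lower genes, 2 of 59 tested neighbours were called higher and 1 lower. No test of these shares was made.

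Chromosome 12 held the most genes of the set. There, 12 of 57 genes without names (21.1%) were higher and 1 was lower, and chromosome 14 followed with 6 of 45 (13.3%). Over all 1428 candidates the share was 4.76%. It was 4 of 39 (10.3%) on chromosome 9, 5 of 68 (7.35%) on chromosome 16 and 5 of 70 (7.14%) on chromosome 7. On chromosomes 22 and 19 it was 1 of 61 and 1 of 53, and chromosome 5 had 0 higher genes among 73. The 12 genes on chromosome 12 summed to 417 and 428 TPM in PM2.5 larvae, against 28.7 and 30.1 TPM in controls, with ratios of means between 5.58 and 58.7. CR385054.1, described above, was the most abundant of them. The gene si:dkey-31i7.2 had 53.8 and 48.4 TPM in the PM2.5 libraries, against 2.77 and 2.40 TPM in the controls. Among the least abundant, si:ch211-226h7.3 had 9.32 and 9.41 TPM in the PM2.5 libraries, against 0.773 and 1.13 TPM in the controls. In each the groups were separated, as the rule requires.

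Part of the count on chromosome 12 comes from names or records that stand for more than 1 gene ID. The name zgc:153932 was listed for ENSDARG00000052779, with 45.9 and 55.9 TPM in the PM2.5 libraries, against 4.69 and 5.34 TPM in the controls. It was also listed for ENSDARG00000113315, with 28.6 and 27.9 TPM in the PM2.5 libraries, against 1.54 and 1.76 TPM in the controls. The name si:ch211-182p11.1 was listed for ENSDARG00000113076, with 20.9 and 22.14 TPM in the PM2.5 libraries, against 1.16 and 0.889 TPM in the controls. Its other ID, ENSDARG00000104324, came with 10.21 and 8.19 TPM in the PM2.5 libraries, against 1.12 and 1.21 TPM in the controls. The IDs under 1 name differed in level. All 4 were higher in both PM2.5 libraries, as the rule requires. CU914622.2 had 35.7 and 35.7 TPM in the PM2.5 libraries, against 5.24 and 6.83 TPM in the controls, and it is now called si:ch73-329n5.6. The gene ID listed under si:ch73-329n5.6 in the table is a different one and had 16.05 and 18.3 TPM in the PM2.5 libraries, against 3.47 and 2.68 TPM in the controls. Reads may have been split between IDs that share a name or a RefSeq record, so these 6 gene IDs are uncertain as separate genes. The deposited data list CABZ01051602.1 on an unplaced scaffold, at 37.6 and 36.6 TPM in the PM2.5 libraries, against 3.74 and 3.92 TPM in the controls. In RefSeq order it shares neighbouring genes with si:ch211-182p11.1 of chromosome 12, but it is not in the chromosome 12 counts above.

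A usable symbol has since been given to 12 of the 79 genes (15.2%), 9 higher and 3 lower, against 287 of the 1428 candidates (20.1%). Among the higher ones, si:ch211-212k18.7 is now cd68, the gene of a lysosomal glycoprotein used as a macrophage marker in mammals. It had 145 and 149 TPM in the PM2.5 libraries, against 21.4 and 20.4 TPM in the controls, a ratio of means of 7.02. The fixed list of 14 macrophage markers, which does not hold cd68, had 4 genes called higher among 13 tested and 0 called lower, against 8.46% and 2.62% of all genes. Of that list, csf1ra overlapped between groups, at 9.39 and 9.81 TPM in PM2.5 larvae and 7.73 and 11.02 TPM in controls. The gene si:ch73-78o10.1 is now dtx3la, a relative of a mammalian ubiquitin ligase of the interferon response, and had 12.9 and 11.30 TPM in the PM2.5 libraries, against 3.04 and 2.97 TPM in the controls. RefSeq gives gimap7 as a synonym of zgc:113625 (chromosome 10), after a family of GTPases of immune cells. It had 22.12 and 22.7 TPM in the PM2.5 libraries, against 0.473 and 0.104 TPM in the controls, which put it among the 12 largest log2 differences at 4.20 (SE 0.21). Its control values differed 4.56-fold from each other but were both below 0.5 TPM. The neighbouring gene si:ch211-139n6.3 had 7.50 and 8.62 TPM in the PM2.5 libraries, against 1.35 and 0.238 TPM in the controls.

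A pair of claudin genes was in the set. Claudins are the membrane proteins that seal tight junctions between epithelial cells. The gene zgc:110333, now cldn8.2, had 49.6 and 48.3 TPM in the PM2.5 libraries, against 8.04 and 7.48 TPM in the controls. The other, zgc:136892, now cldn30, had 10.4 and 10.3 TPM in the PM2.5 libraries, against 2.55 and 2.98 TPM in the controls. The ratio of means was 6.31 for cldn8.2 and 3.75 for cldn30, so the more abundant claudin also differed more. Other claudin genes stood near both. Within 5 genes of cldn30 was cldnb, at 333 and 293 TPM in the PM2.5 libraries, against 149 and 125 TPM in the controls, called higher with a log2 difference of 1.19. Between them, zgc:112437, now cldn29, had 22.3 and 16.3 TPM in the PM2.5 libraries, against 18.8 and 13.4 TPM in the controls, which overlapped and was not called. The gene cldnd, also there, was under 1 TPM in every library and was not tested. The same held for cldn17, now cldn8.3, beside cldn8.2, at 0.0319 and 0.503 TPM in the PM2.5 libraries, against 0.119 and 0.156 TPM in the controls.

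Of the other higher genes with a current symbol, zgc:194686, now jac11, had 29.0 and 25.7 TPM in the PM2.5 libraries, against 1.45 and 2.80 TPM in the controls. The gene zgc:153665, now mala.2 and of the family of the MAL proteolipid, had 10.9 and 8.59 TPM in the PM2.5 libraries, against 2.43 and 2.68 TPM in the controls. The gene si:ch211-194m7.3, for which RefSeq gives the symbol olmf4l1, had 10.9 and 10.5 TPM in the PM2.5 libraries, against 1.87 and 1.01 TPM in the controls. The gene directly before it in the order is olfm4l2, named after olfactomedin 4, a secreted glycoprotein of the gut in mammals, and had 3.21 and 3.45 TPM in the PM2.5 libraries, against 0.741 and 0.808 TPM in the controls. This neighbour was called higher by the test across all genes. The gene aep1, near jac11 in the order, was called lower, at 14.5 and 13.97 TPM in the PM2.5 libraries, against 45.2 and 52.7 TPM in the controls. The gene wu:fj05g07 has frrs1, a ferric reductase gene, among its synonyms and had 21.5 and 28.0 TPM in the PM2.5 libraries, against 2.92 and 2.001 TPM in the controls.

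The 11 lower genes were chosen by a weaker threshold than the higher genes (0.5 times, against 3 times), so the sizes of their differences cannot be set against those of the higher genes. The largest was in si:dkey-183i3.5 (ENSDARG00000056248, chromosome 21), with 217 and 224 TPM in the PM2.5 libraries, against 1082 and 1111 TPM in the controls. Its group means were 220.5 ± 5.197 TPM in PM2.5 larvae and 1097 ± 20.7 TPM in controls (SD, n = 2 each), and its log2 difference was -2.31 (SE 0.04). The most abundant was zgc:136930 (ENSDARG00000055192, chromosome 2), with 598 and 584 TPM in the PM2.5 libraries, against 1807 and 1806 TPM in the controls, a log2 difference of -1.61 (SE 0.03). These 2 genes carried most of the summed level of the lower genes, and their libraries agreed closely within each group. In RefSeq order zgc:136930 follows bfsp2, the gene of a filament protein of lens fibre cells, which had 48.7 and 46.6 TPM in the PM2.5 libraries, against 86.7 and 79.9 TPM in the controls. This neighbour was picked after its values were seen. Of 59 tested neighbours of the 11 lower genes, 1 (1.69%) was called lower and 2 (3.39%) higher, against 2.62% and 8.46% of all genes. Only si:dkey-183i3.5 and zgc:136930 would also meet a threshold of 1 in 3.

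A pair of lower genes is named after plasma proteins of the liver. The gene si:ch211-270n8.1 (chromosome 13), now apcs with the synonym crp, belongs to the pentraxins, plasma proteins made by the liver, and had 8.53 and 7.17 TPM in the PM2.5 libraries, against 22.3 and 21.5 TPM in the controls. The gene si:ch1073-416d2.3 (chromosome 17), now serpina10b, is named after an inhibitor of coagulation proteases and had 4.38 and 3.81 TPM in the PM2.5 libraries, against 9.48 and 9.45 TPM in the controls. Beside these values, the 12 hepatocyte markers summed to 5988 and 6096 TPM in PM2.5 larvae and 6945 and 6758 TPM in controls, with 1 called higher and 4 lower. The sum over hepatocyte markers differed less, as a ratio, than either gene, but both genes were chosen by the size of their difference. The part of the hepatocyte shift in the difference of these genes was not tested. FO704786.1 (chromosome 12), which RefSeq names samd14, had 4.46 and 4.53 TPM in the PM2.5 libraries, against 9.36 and 9.89 TPM in the controls.

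The remaining 6 lower genes have no current name. On chromosome 4, si:dkey-14d8.6 had 29.7 and 28.7 TPM in the PM2.5 libraries, against 64.8 and 77.4 TPM in the controls. On the same chromosome, zgc:113263 had 6.49 and 6.30 TPM in the PM2.5 libraries, against 16.3 and 14.7 TPM in the controls. Their ratios of means were equal to 2 digits, at 0.411 and 0.412. The gene si:cabz01007794.1 (chromosome 7) had 11.6 and 10.96 TPM in the PM2.5 libraries, against 30.3 and 36.9 TPM in the controls. A gene 2 places from it, si:cabz01007807.1, was higher in PM2.5 larvae. That gene had 9.36 and 13.0 TPM in the PM2.5 libraries, against 3.45 and 3.20 TPM in the controls. These nearby genes thus differed in opposite directions. AL954146.1 (chromosome 23) had 2.23 and 4.06 TPM in the PM2.5 libraries, against 10.12 and 8.94 TPM in the controls, the largest ratio between the PM2.5 libraries among the lower genes. Both controls were above both PM2.5 libraries, as the rule requires. The gene zgc:174259 (chromosome 5) had 3.03 and 3.19 TPM in the PM2.5 libraries, against 6.83 and 8.82 TPM in the controls. The gene si:ch211-89o9.4 (chromosome 1) had 3.35 and 2.69 TPM in the PM2.5 libraries, against 7.10 and 7.88 TPM in the controls.

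Libraries of a group were mostly close. Among the higher genes the larger PM2.5 value exceeded the smaller by a median of 1.096 times, and the larger control value the smaller by 1.177 times, against medians of 1.15 and 1.14 over all 1428 candidates. The rule compares the nearest values of the groups, so it favours genes whose libraries are close. These medians are therefore no measure of how well the libraries agree. The PM2.5 libraries were within 1.2 times of each other in 54 of 68 genes. PM2.5 replicate 1 was above replicate 2 in 34 of the 68, so neither library was higher throughout. The clearest exception was BX629348.1 (chromosome 9), with 19.2 and 2.76 TPM in the PM2.5 libraries; it was listed at 0 in both controls, so no fold is given. Its log2 difference of 3.13 was 1.91 with the first PM2.5 library removed and 4.34 with the second removed. CABZ01084230.1, on an unplaced scaffold, had 19.3 and 10.07 TPM in the PM2.5 libraries, against 2.44 and 2.14 TPM in the controls. The gene si:ch73-31d8.2, at 29.6 and 33.4 TPM in the PM2.5 libraries, against 6.16 and 7.32 TPM in the controls, is protein coding in the deposited table but a long non-coding RNA in RefSeq.

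Genes just inside and just outside each threshold had similar ratios of their nearest values, while their TPM levels differed. Just inside the higher threshold were zgc:112332, zgc:165423 and zgc:154054, whose lowest PM2.5 value was 3.04, 3.09 and 3.11 times the highest control value. The first, zgc:112332, had 20.0 and 20.8 TPM in the PM2.5 libraries, against 5.78 and 6.60 TPM in the controls. The last, zgc:154054, had 26.1 and 25.1 TPM in the PM2.5 libraries, against 6.19 and 8.06 TPM in the controls. Just outside were si:dkey-221j11.3, BX957278.1 and si:cabz01007807.1, at 2.89, 2.74 and 2.72 times. For lower genes the highest PM2.5 value was 0.484, 0.472 and 0.467 times the lowest control value just inside, in FO704786.1, si:ch211-89o9.4 and zgc:174259. It was 0.507, 0.512 and 0.527 times just outside, in zgc:73226, CABZ01079267.1 and CABZ01053748.1. The last of these had unequal PM2.5 libraries, at 0.313 and 5.93 TPM, against 11.3 and 12.3 TPM in the controls.

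Further higher genes had very low control levels. The gene si:ch211-202h22.7 (chromosome 1) had 9.94 and 14.2 TPM in the PM2.5 libraries, against 0.237 and 0.780 TPM in the controls. On chromosome 4, si:ch211-266a5.12 had 17.6 and 12.2 TPM in the PM2.5 libraries, against 0.607 and 0.899 TPM in the controls. Also there, si:dkey-27n6.4 had 15.5 and 14.5 TPM in the PM2.5 libraries, against 0.911 and 0.926 TPM in the controls. These 3 were below 1 TPM in each control library, and so were near the lower end of what the pseudocount of 1 TPM resolves. The third gene after si:ch211-266a5.12 in the order was il26, a cytokine gene of the interleukin-10 family, at 2.02 and 2.26 TPM in the PM2.5 libraries, against 0.148 and 0 TPM in the controls. The genes between them, ifng1 and ifng1r, were at most 0.211 and 0.468 TPM in any library and were not tested. While il26 was called higher, the other tested neighbours, cand1, si:dkey-39a18.1, dyrk2 and mdm1, were not called. FO704661.1 (chromosome 8) had 31.1 and 32.7 TPM in the PM2.5 libraries, against 2.84 and 2.76 TPM in the controls. The 20 higher genes not given one by one ran from 8.88 to 73.7 TPM in the PM2.5 libraries, against 1.22 to 17.6 TPM in the controls. Their ratios of means ran from 3.48 to 12.7 with a median of 5.42.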

How the data were processed

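Whole zebrafish larvae were profiled by RNA sequencing in 2 PM2.5 and 2 control libraries, grouped by their titles. Per the submitters' processing notes, cutadapt 1.18, STAR 2.6.1c and the build GRCz11 were used; how reads were assigned to genes (program, annotation release, strand) is not given in the sources used here. Per the labels and the header, the deposited values are TPM, in 1 table from the authors with 32925 rows, of which 405 repeated a gene ID with the same values; 32520 were used. TPM is relative: where some transcripts take up more of a library, the values of the others go down. Group and neighbour counts used limma 3.58.1 in R 4.3.3 on log2(TPM + 1) for 20874 genes (mean over libraries 1 TPM or more). The model held only the group; variances were moderated with a trend on the mean level, and two-sided p-values were adjusted by Benjamini-Hochberg (threshold 0.05). The fold change understates that of low genes. The fit was tested on simulated data. Current names came from reference tables of gene names and RefSeq (GRCz12tu), matched by Entrez ID or symbol.

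The genes, marker lists and rules were chosen with earlier results of these data known. Values are given for the 12 higher and 8 lower genes with the largest difference, the 5 most abundant in each direction, those with a current symbol, those within 5 genes of another gene of the set, and those at the thresholds. Other genes of the set, all neighbours and the wording of roles were chosen after their values were seen. Descriptions for grouping all genes by role were not used here, so roles are given only where a reference symbol exists. The alternatives were other thresholds, minimum levels, pseudocounts and scalings, single libraries left out, and a replicate block.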

Additional observations from a re-analysis of the deposited data

How the results depend on the processing

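The direction of all 79 log2 differences was kept under every alternative fit (pseudocounts, scalings, filters, replicate block and each library left out). The rule had already placed both PM2.5 libraries on one side of both controls, so this outcome was largely fixed in advance. The sizes moved by at least the residual SD of the gene in 58 of 79 with a pseudocount of 0.1 TPM. With 0.5 TPM 34 moved, after quantile normalization 31 and after TMM-type rescaling 21. As a share of the reported difference, sizes ran from 61.2% (without PM2.5 replicate 1) to 199% (pseudocount of 0.1 TPM). The counts of genes depended on the thresholds. With a minimum mean of 1 TPM there were 142 higher and 42 lower genes, with 10 TPM 44 and 6, and with no minimum 270 and 203. A 2-fold threshold gave 109 higher genes, a 5-fold threshold 44, and a threshold of 1 in 3 gave 2 lower genes. With ratios of TPM + 1 there were 60 higher and 6 lower genes. The split of the set also moved with the scaling, to 62 higher and 15 lower after TMM-type rescaling and 59 and 16 after quantile normalization. The lower genes numbered 52 from the replicate 1 libraries alone and 39 from the replicate 2 libraries alone. With 1 library left out the higher genes numbered 62 to 89 and the lower genes 17 to 48. For the test over all genes, TMM-type rescaling gave 835 lower calls and quantile normalization 962, and eBayes without a trend gave 665 higher and 105 lower. Leaving out 1 library gave 286 to 371 higher and 70 to 124 lower calls; the lone library of a group was then assumed to vary like the other group.

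Libraries with the same replicate number did not deviate together (correlation 0.07), so the numbers were not treated as pairs. With the replicate block the test over all genes called 2072 higher and 781 lower, and every log2 difference was the same. TPM gives no depth, and 2 libraries per group limit the precision of each value.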
